A study of Mus musculus with 32 samples.

Results

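Expression of 9 genes of the cAMP and DARPP-32 cascade was examined in RNA-seq of the corpus striatum of 32 mice aged 6 months. The 9 genes were chosen by symbol, for their roles in the cascade, out of 54532 genes in the count table. The choice was made with earlier results of these data known. They were Gnal and Gng7, which encode the α and γ subunits of the G protein Golf, Adcy5 (adenylyl cyclase 5), Prkar2b (a regulatory subunit of protein kinase A), Ppp1r1b (DARPP-32), Ppp1r1a (inhibitor 1), Arpp21 and Arpp19 (cAMP-regulated phosphoproteins), and Ptpn5 (the striatal-enriched tyrosine phosphatase STEP). All 9 passed the filter on low counts that left 16610 genes for testing. The 4 groups held 8 mice each: wild-type, Msh3-/-, zQ175 and zQ175:Msh3-/-, with 4 females and 4 males in each except zQ175:Msh3-/-, which had 3 females and 5 males. The zQ175 allele places an expanded CAG repeat in the endogenous Htt gene, and the Msh3-/- allele is a constitutive knockout in a line made by CRISPR, so that the allele is carried in all cells throughout life. Both alleles were on a C57BL/6J background, the genotypes were bred as littermates, and the wild-type mice carried neither allele. The study asked whether loss of the mismatch repair protein MSH3, which is needed for somatic expansion of the repeat, changes striatal gene expression in zQ175 mice.

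In spiny projection neurons, the principal neurons of the striatum, the dopamine receptor Drd1 and the adenosine receptor Adora2a couple to Golf, and Golf activates adenylyl cyclase 5 to make cAMP. Protein kinase A, released from its regulatory subunits by cAMP, phosphorylates DARPP-32, which then inhibits protein phosphatase 1, so that the kinase signal is prolonged. Inhibitor 1 acts in the same way, and STEP is switched off by protein kinase A. ARPP-19 inhibits protein phosphatase 2A once it is phosphorylated by another kinase, Mastl. ARPP-21 is an RNA-binding phosphoprotein of the same neurons. These genes are also among those used to describe the striatum in Huntington's disease models.

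Total counts lay between 12359347 and 25030335 per mouse, with a median of 16700247, and no member had fewer than 565 reads in any mouse. The knockout was visible in the counts of Msh3, although reads of the gene remained, and where in the gene they lie was not measured. Msh3 ranged from 22.9 to 27.5 CPM (counts scaled to library size) in wild-type, from 22.8 to 27.4 in zQ175, from 10.4 to 13.6 in Msh3-/- and from 11.1 to 14.2 CPM in zQ175:Msh3-/- mice, so that the groups with and without the allele were apart. Markers of the striatum were present, with 8 spiny projection neuron markers summing to between 3840 and 4779 CPM in wild-type mice. Markers of neighbouring tissue varied widely between mice of every group: the 3 cortex markers summed to between 30.7 and 592 CPM, and the 3 choroid plexus markers to between 18.8 and 2895 CPM.

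In wild-type striatum, Ppp1r1b was the most abundant of the 9 per unit of transcript length, at 2748 ± 238 TPM (SD, n = 8), a unit scaled for transcript length, which ranked 26 among the genes tested. Arpp21 followed at 1338 ± 105 TPM, Gng7 at 925 ± 68.4 TPM and Arpp19 at 741 ± 50.1 TPM. Adcy5 had 613 ± 50.4 TPM, Ptpn5 had 486 ± 55.0 TPM and Gnal had 374 ± 21.1 TPM. The lowest levels were those of Ppp1r1a, at 144 ± 9.64 TPM, and Prkar2b, at 102 ± 4.19 TPM, which ranked 1671. Neighbours in this order had ranges over mice that did not overlap, except Arpp19 and Adcy5, Adcy5 and Ptpn5, and Ptpn5 and Gnal, which did. In zQ175 mice the order of TPM differed: Gng7, at 764 ± 63.1 TPM, stood above Arpp21, at 683 ± 47.4 TPM, and the means of Arpp19 (369 TPM), Adcy5 (353 TPM) and Ptpn5 (347 TPM) lay close together, with ranges of 316 to 433, 318 to 388 and 310 to 384 TPM that overlapped.

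The sequence before the transcription start was available for 6 of the 9 genes (RefSeq, build GRCm38.p6), and 250 bases upstream of the start nearest to the GENCODE gene start were searched for 3 motifs on both strands. The 5 windows whose start lies within 20 bases of the GENCODE start are printed because these genes, the cyclase, the G protein γ subunit, the kinase subunit, ARPP-19 and STEP, are the measured ones for which a promoter could be shown. Capitals mark the GC box, GGGCGG or its complement on the other strand; each window reads 5′ to 3′ along its gene and stops 1 base short of the start.
Adcy5, chr16:35154614-35154863, plus strand: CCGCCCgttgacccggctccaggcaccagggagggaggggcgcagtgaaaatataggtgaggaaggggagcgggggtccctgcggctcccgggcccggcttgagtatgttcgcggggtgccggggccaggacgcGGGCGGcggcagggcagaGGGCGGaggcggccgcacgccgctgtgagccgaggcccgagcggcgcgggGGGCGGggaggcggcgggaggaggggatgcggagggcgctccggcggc
Gng7, chr10:81014926-81015175, minus strand: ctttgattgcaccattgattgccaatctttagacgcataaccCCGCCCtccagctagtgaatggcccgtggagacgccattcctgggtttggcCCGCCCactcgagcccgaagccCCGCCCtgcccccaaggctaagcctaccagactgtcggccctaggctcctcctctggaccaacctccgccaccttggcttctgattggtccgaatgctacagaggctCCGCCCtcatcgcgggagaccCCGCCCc
Prkar2b, chr12:32061278-32061527, minus strand: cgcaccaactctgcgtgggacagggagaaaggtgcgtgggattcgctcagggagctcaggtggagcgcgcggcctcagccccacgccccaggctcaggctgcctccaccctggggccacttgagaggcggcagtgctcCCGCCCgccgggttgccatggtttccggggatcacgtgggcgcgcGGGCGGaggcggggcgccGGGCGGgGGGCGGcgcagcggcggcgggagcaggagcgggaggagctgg
Arpp19, chr9:75037364-75037613, plus strand: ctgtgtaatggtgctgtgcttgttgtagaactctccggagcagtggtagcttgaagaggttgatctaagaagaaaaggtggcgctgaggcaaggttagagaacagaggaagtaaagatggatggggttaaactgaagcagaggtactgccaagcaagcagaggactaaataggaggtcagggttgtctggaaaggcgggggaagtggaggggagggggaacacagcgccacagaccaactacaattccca
Ptpn5, chr7:47133685-47133934, minus strand: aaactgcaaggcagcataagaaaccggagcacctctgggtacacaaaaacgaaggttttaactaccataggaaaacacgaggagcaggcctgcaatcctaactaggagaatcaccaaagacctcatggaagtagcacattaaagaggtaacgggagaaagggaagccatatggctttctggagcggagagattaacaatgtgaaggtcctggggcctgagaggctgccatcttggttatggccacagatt
A GC box was found in 3 of the 6 windows, with 4 matches in Adcy5, 5 in Gng7 and 4 in Prkar2b, against 32.7% of all 32851 windows of that length. Adcy5 and Prkar2b windows held 78.0% and 75.6% G and C, Gng7 62.8%, Arpp19 51.2% and Ptpn5 48.0%, beside a median of 52.4% over all windows. The core of the cAMP response element, TGACG, was in 0 of the 6 windows and in 17.8% of all windows, and TATAAA was in 0 of 6 and in 12.4% of all. These matches are descriptions of the windows, and no binding was measured.

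Between zQ175 and wild-type mice, 8 of the 9 genes fell. The largest falls were those of Arpp21, to 49.7% of the wild-type level, and Arpp19, to 52.6%, followed by Adcy5 (55.4%) and Ppp1r1b (56.7%). Ppp1r1a fell to 64.7% and Ptpn5 to 68.8%, and the Golf subunits fell least, Gng7 to 78.5% and Gnal to 79.4%. Prkar2b was at 86.6% of wild-type, which passed the test on p but not the fold minimum; 13.5% of all genes were lower by adjusted p alone. A gene was called when its adjusted p was under 0.05 in edgeR's quasi-likelihood test over all 16610 genes and its fold change was at least 1.2; of all genes, 6.89% were called lower and 11.6% in either direction. The calls over all genes were 59.4% lower with counts and 40.1% lower when the deposited TPM values were tested with limma. These 2 fits differ in scale, filter and test, with 16610 and 22274 genes tested. The balance of directions thus depends on the processing, while the 8 members were called lower in both fits. On the Msh3-/- background the same split was 56.0% lower with counts and 31.5% lower with TPM, and there 8 members were called with counts and 6 with TPM. For 8 of the 9 genes every zQ175 mouse lay below every wild-type mouse (Gng7 was the exception), as for 4.61% of all genes. The median log2 fold change of the 9 was -0.63, beside 0.01 over all genes tested. Because the 9 were chosen with earlier results of these data known, these comparisons with all genes describe the list and do not test it. In bulk tissue, fewer cells of a type and less RNA per cell cannot be told apart.

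**Figure D1:**
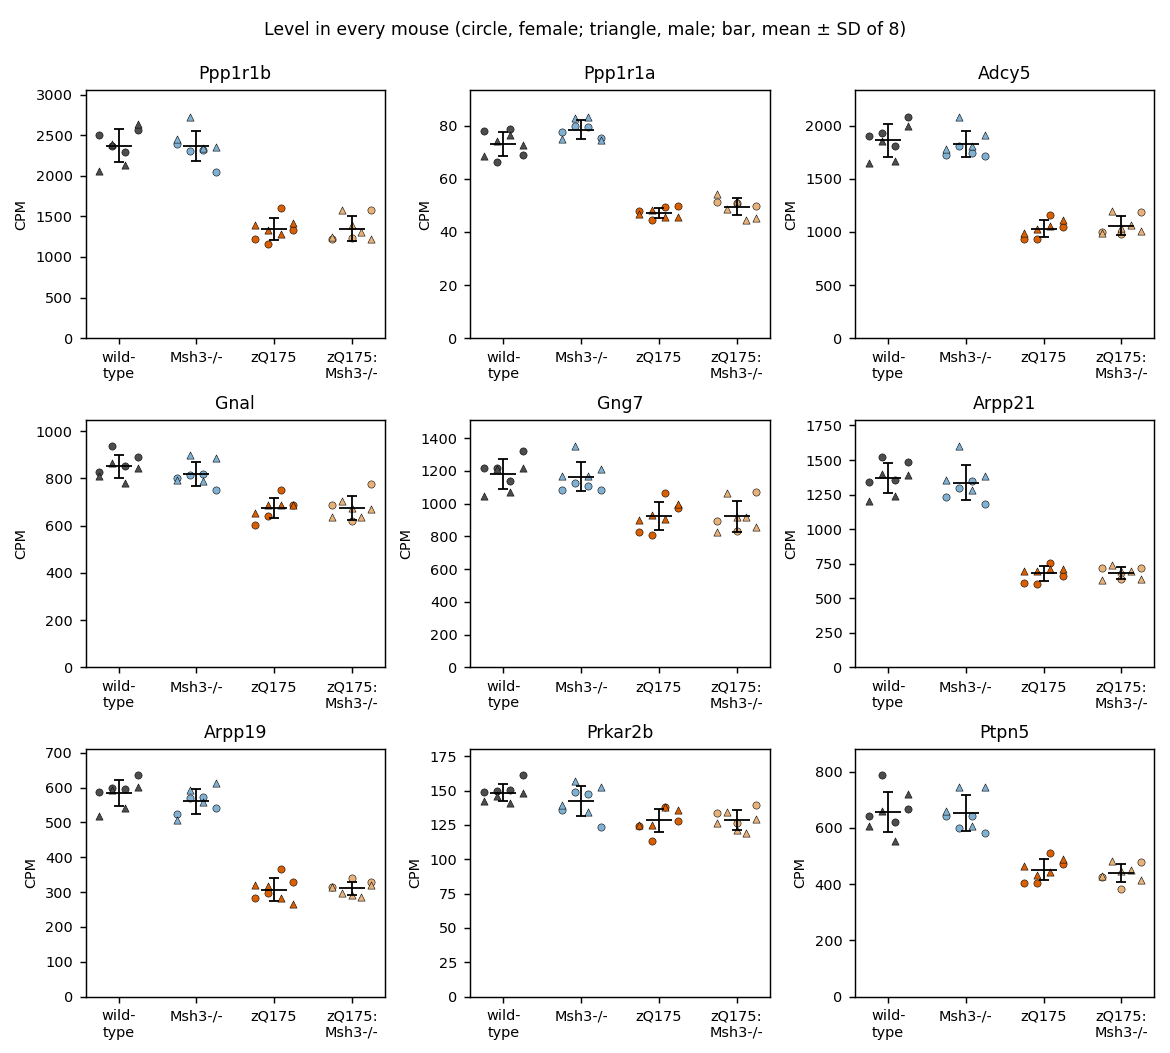
Level of each of the 9 genes in CPM (vertical axes, starting at 0) in every mouse of the 4 genotype groups; circles are females, triangles are males, and bars are the mean ± SD of 8 mice. Both groups with the zQ175 allele lie low in every panel, by the widest margin for Arpp21 and the narrowest for Prkar2b, and the groups with and without Msh3 overlap within each Htt genotype.

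Of the Golf subunits, Gnal, on chromosome 18, had from 779 to 937 CPM in wild-type mice (median 847) and from 602 to 752 CPM in zQ175 mice (median 688). The highest zQ175 mouse lay below the lowest wild-type mouse. The log2 fold change was -0.33 (SE 0.0451, 95% interval -0.42 to -0.24), with an edgeR adjusted p of 4.02e-07. Gng7 (chr10:80948624-81014945, minus strand, GRCm38), whose γ subunit is needed to assemble Golf in these neurons, had from 1047 to 1323 CPM in wild-type (median 1214) and from 807 to 1064 CPM in zQ175 mice (median 919). The groups met at 1 mouse, the highest zQ175 mouse, which lay above the lowest wild-type mouse; the other 7 lay below all wild-type mice. Its log2 fold change was -0.35 (SE 0.0593, 95% interval -0.47 to -0.23; edgeR adjusted p = 2.29e-05). Reads of Gnal share 852 exonic bases with Mppe1 on the opposite strand, whose own reads came to 1.525% of those of Gnal.

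Adcy5 (chr16:35154877-35305738, plus strand) encodes the main adenylyl cyclase of the striatum. Its level was between 1647 and 2082 CPM in wild-type mice, with a median of 1878, and between 931 and 1156 CPM in zQ175 mice, with a median of 1038. All 8 zQ175 mice were below all wild-type mice, with a wide gap between the groups. Adcy5 changed by -0.85 on the log2 scale (SE 0.0527, 95% interval -0.96 to -0.74; edgeR adjusted p = 4.68e-15). Prkar2b (chr12:31958476-32061296, minus strand), the RIIβ subunit through which protein kinase A is held at its anchors, moved little: wild-type mice had from 141 to 161 CPM (median 149) and zQ175 mice from 113 to 138 CPM (median 127). These ranges did not overlap either, but the gap was narrow. The log2 fold change of Prkar2b was -0.21 (SE 0.0429, 95% interval -0.30 to -0.12), with an adjusted p of 0.000301 in edgeR and a fold under the minimum of 1.2. In females alone it was -0.27 (edgeR adjusted p = 0.00491) and passed both thresholds, and in males alone it was -0.14 (edgeR adjusted p = 0.0894). Between zQ175:Msh3-/- and Msh3-/- mice the sexes stood the other way round. Females alone had -0.06 (edgeR adjusted p = 0.668) and males alone -0.21 (edgeR adjusted p = 0.00634). Averaged over both Msh3 genotypes, the effect on Prkar2b differed by -0.01 between males and females (edgeR unadjusted p = 0.873).

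Ppp1r1b (chr11:98348404-98357796, plus strand), which encodes DARPP-32, had from 2061 to 2642 CPM in wild-type mice (median 2378) and from 1162 to 1601 CPM in zQ175 mice (median 1332). The groups did not overlap, and the change was -0.82 on the log2 scale (SE 0.0651, 95% interval -0.95 to -0.69; edgeR adjusted p = 7.39e-12). Its relative Ppp1r1a (chr15:103530279-103538003, minus strand), which encodes inhibitor 1, had from 66.4 to 78.6 CPM in wild-type (median 73.4) and from 44.4 to 49.6 CPM in zQ175 mice (median 47.1). This was the tightest of the zQ175 groups, with a coefficient of variation of 4.00%, and it lay wholly below wild-type. Its log2 fold change was -0.63 (SE 0.0396, 95% interval -0.71 to -0.55; edgeR adjusted p = 7.41e-15).

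Both ARPP genes fell to near 50% of their wild-type level. Arpp21 (chr9:112065091-112235938, minus strand) went from between 1202 and 1519 CPM in wild-type mice (median 1374) to between 601 and 755 CPM in zQ175 mice (median 697). Its log2 fold change, -1.01, was the largest of the 9 (SE 0.0544, 95% interval -1.12 to -0.90; edgeR adjusted p = 1.25e-16). Arpp19 (chr9:75037614-75060313, plus strand), whose product inhibits protein phosphatase 2A and is made in many cell types, had from 519 to 635 CPM in wild-type (median 594) and from 265 to 366 CPM in zQ175 mice (median 307). The highest zQ175 mouse was far below the lowest wild-type mouse for both genes. The log2 fold change of Arpp19 was -0.93 (SE 0.0516, 95% interval -1.03 to -0.82; edgeR adjusted p = 2.32e-16).

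Ptpn5 (chr7:47077795-47133684, minus strand), encoding STEP, which removes phosphate from tyrosines of kinases and glutamate receptors, had from 554 to 786 CPM in wild-type (median 651) and from 404 to 511 CPM in zQ175 mice (median 453). It was the most variable of the 9 among wild-type mice, with a coefficient of variation of 10.8%, and the groups still did not overlap. Ptpn5 changed by -0.54 on the log2 scale (SE 0.0623, 95% interval -0.67 to -0.41; edgeR adjusted p = 2.22e-08). The exact two-sided permutation test of 8 against 8 mice gave p = 0.000155, the smallest it can give, for each of the 9 genes except Gng7, for which p was 0.000311.

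On the Msh3-/- background, which shares no mouse with the comparison above, the same 8 genes fell between Msh3-/- and zQ175:Msh3-/- mice, where 5.96% of all genes were called lower. Arpp21 went from 1180 to 1600 CPM in Msh3-/- mice (median 1322) to 631 to 743 CPM in zQ175:Msh3-/- mice (median 696), a log2 fold change of -0.96 (SE 0.0544). Arpp19 changed by -0.85 (SE 0.0516), Ppp1r1b by -0.81 (SE 0.0651), Adcy5 by -0.79 (SE 0.0527), Ppp1r1a by -0.66 (SE 0.0396) and Ptpn5 by -0.57 (SE 0.0624) on the log2 scale. The highest edgeR adjusted p of these 6 was 8.19e-09, and their groups did not overlap. The groups of Gng7 were apart as well (log2 fold change -0.33, SE 0.0593, edgeR adjusted p = 5.52e-05), which made 7 of 9 genes with groups apart, as for 3.64% of all genes; for Prkar2b, 2 of 8 mice lay below all Msh3-/- mice.

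Gnal stood closest to the fold minimum in zQ175:Msh3-/- against Msh3-/- mice. It had from 750 to 901 CPM in Msh3-/- mice (median 808) and from 620 to 777 CPM in zQ175:Msh3-/- mice (median 673), with 7 of 8 mice below all Msh3-/- mice. The log2 fold change was -0.28 (SE 0.0451, 95% interval -0.37 to -0.19; edgeR adjusted p = 1.16e-05), and the fold, 1.21, fell under the minimum when Msh3-/- male replicate 2 or 4 or zQ175:Msh3-/- female replicate 2 was left out (log2 fold changes of -0.26, -0.26 and -0.26). In limma on log2(TPM + 0.1) both Golf subunits were under the fold minimum on this background, Gnal at -0.21 (adjusted p = 0.000408) and Gng7 at -0.24 (adjusted p = 0.00563). With females alone, neither Golf subunit was called on this background: Gnal had -0.20 (edgeR adjusted p = 0.113) and Gng7 -0.24 (edgeR adjusted p = 0.131). Prkar2b had a log2 fold change of -0.15 (SE 0.0431, 95% interval -0.23 to -0.06; edgeR adjusted p = 0.0109) and was not called. The mice whose cortex markers summed to over 300 CPM were 0 wild-type, 2 Msh3-/-, 2 zQ175 and 3 zQ175:Msh3-/-; without these 7 mice, 8 members were called in zQ175 against wild-type and 7 in zQ175:Msh3-/- against Msh3-/-, where Gnal had -0.25 (edgeR adjusted p = 0.00244). Without the 7 mice whose choroid plexus markers summed to over 500 CPM, 8 members were called in each. The effect of the zQ175 allele did not pass the test of a difference between the Msh3 backgrounds for any of the 9 genes: the interaction lay between -0.04 and 0.08 on the log2 scale, within 95% intervals from -0.21 to 0.23, at unadjusted p between 0.276 and 0.956 in edgeR. In females alone the largest interaction of a member was 0.25 in size. Over all 16610 genes 0 passed this edgeR test at an adjusted p under 0.05, and 737 had an unadjusted p under 0.05.

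Set against wild-type mice, zQ175:Msh3-/- mice had the same 8 genes called, from Arpp21 at 50.2% of the wild-type level to Gnal at 79.5%, with Prkar2b, not called, at 86.7%; in limma on log2(TPM + 1) Gnal (-0.26) and Gng7 (-0.26) were under the fold minimum, and Gnal also with a pseudocount of 0.1 (-0.26). Of all genes, 6.49% were called lower in edgeR. This comparison shares its wild-type mice with the first. Averaged over both Msh3 genotypes, the zQ175 effect was -0.98 for Arpp21 (SE 0.0385), -0.89 for Arpp19 (SE 0.0365), -0.82 for Adcy5 (SE 0.0373) and Ppp1r1b (SE 0.046), -0.65 for Ppp1r1a (SE 0.028), -0.56 for Ptpn5 (SE 0.0441), -0.34 for Gng7 (SE 0.0419), -0.31 for Gnal (SE 0.0319) and -0.18 for Prkar2b (SE 0.0304), and 7.38% of all genes were called lower. In limma on TPM the averaged effects of Gnal (-0.25) and Gng7 (-0.26) were under the fold minimum.

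**Figure D2:**
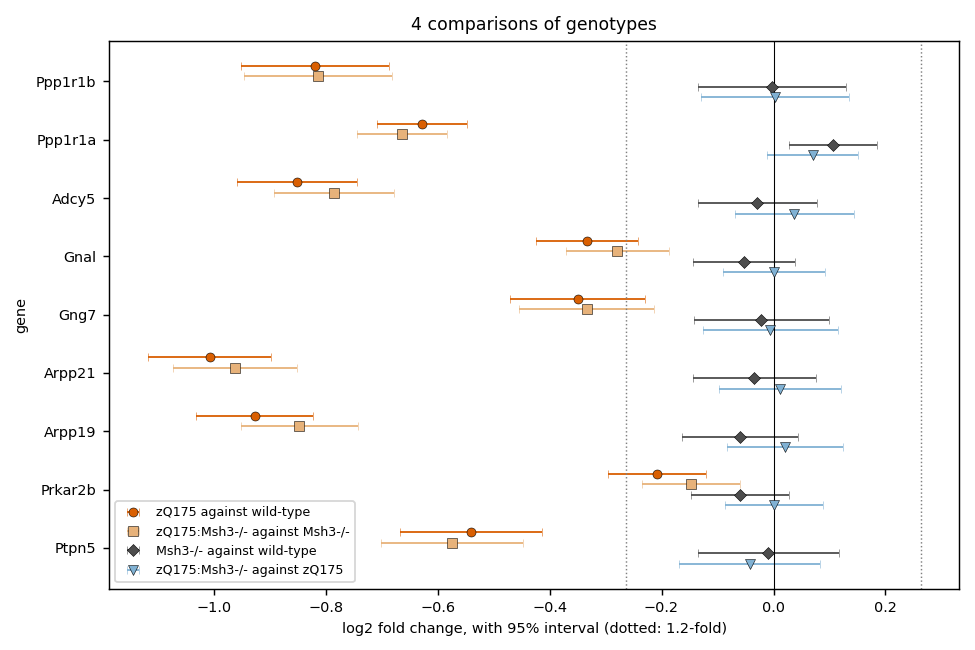
Log2 fold change (horizontal axis) with its 95% interval for each of the 9 genes (vertical axis) in 4 comparisons; dotted lines mark a fold change of 1.2. The zQ175 comparisons on either Msh3 background lie to the left, from -1.01 to -0.15, and the comparisons for loss of Msh3 lie within -0.06 and 0.11.

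Loss of Msh3 moved none of the 9 genes past the thresholds on either Htt background, where 0.00602% of all genes, Msh3 alone, were called lower. With the zQ175 allele present, loss of Msh3 went with log2 fold changes between -0.04 (Ptpn5) and 0.07 (Ppp1r1a), with 95% intervals that stayed within -0.17 and 0.15, and unadjusted p was between 0.0922 and 0.977 in edgeR. Ppp1r1b, for instance, had from 1215 to 1575 CPM in zQ175:Msh3-/- mice (median 1280) beside 1162 to 1601 CPM in zQ175 mice, and Arpp21 had 631 to 743 CPM beside 601 to 755 CPM. The ranges of these groups overlapped for every member. Without it, Msh3-/- mice differed from wild-type by -0.06 to 0.11 on the log2 scale. The gene at 0.11 was Ppp1r1a, with 74.7 to 83.3 CPM in Msh3-/- mice (median 78.5) against 66.4 to 78.6 CPM in wild-type (95% interval 0.03 to 0.19, unadjusted p = 0.00921, adjusted p = 0.916 in edgeR; exact permutation p = 0.0185). Averaged over both Htt genotypes the difference of Ppp1r1a was 0.09 (95% interval 0.03 to 0.14, unadjusted p = 0.00324, adjusted p = 0.991 in edgeR), which did not pass the correction, and the other 8 genes lay between -0.03 and 0.00. Every one of these intervals lies inside the fold minimum of 1.2 in either direction. Of 16610 genes, an unadjusted edgeR p under 0.05 was found for 846 in Msh3-/- against wild-type mice and for 775 on average. In zQ175:Msh3-/- against zQ175 mice it was found for 614.

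Neither sex nor its combination with the zQ175 allele moved a member past the test. Male against female differences, in a model with genotype, were largest for Arpp19, at -0.07 on the log2 scale (95% interval -0.14 to 0.00; unadjusted p = 0.0549, adjusted p = 0.55 in edgeR), in a comparison that called 0.169% of all genes. The zQ175 effect averaged over the Msh3 genotypes called the same 8 genes in males and in females, beside 6.58% and 6.51% of all genes called lower. For Arpp21 it was -0.97 in males and -0.99 in females, and for Arpp19 it was -0.92 in males and -0.84 in females. The difference of the effect between the sexes had unadjusted p between 0.239 and 0.989 for the 9 genes in edgeR.

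Because the genes fell by different amounts, their proportions within a mouse shifted, and these are free of differences in depth between mice. Among the 36 pairs of the 9 genes, the log2 ratio of CPM differed between zQ175 and wild-type mice for 31 pairs, and between zQ175:Msh3-/- and Msh3-/- mice for 28 pairs (exact permutation tests, Benjamini-Hochberg adjusted over 36). All 28 were among the 31 and had the same direction on both backgrounds. This set of ratios was chosen after the values of the members were seen. The ratios restate the unequal falls of the members given above, and the share among pairs of other genes was not measured. The proportion of the Golf subunits did not pass the test on either background: the log2 ratio of Gnal to Gng7 was -0.45 ± 0.0655 in zQ175 and -0.47 ± 0.0768 in wild-type mice (SD, n = 8; exact permutation, adjusted p = 0.62), and -0.45 ± 0.0808 and -0.50 ± 0.064 on the Msh3-/- background (exact permutation, adjusted p = 0.156). Likewise Ppp1r1b to Adcy5 had 0.38 ± 0.0765 in zQ175 and 0.35 ± 0.0413 in wild-type mice (exact permutation, adjusted p = 0.345). The cyclase and its G protein parted, with Adcy5 to Gng7 at 0.16 ± 0.0429 in zQ175 mice and 0.66 ± 0.0296 in wild-type mice, and at 0.20 ± 0.042 and 0.65 ± 0.0258 in zQ175:Msh3-/- and Msh3-/- mice (exact permutation, adjusted p = 0.000294 and 0.000311). Arpp21 to Prkar2b, the pair that moved furthest, had log2 ratios of 2.40 ± 0.063 in zQ175 and 3.20 ± 0.0809 in wild-type mice, so that the groups were apart.

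For 5 of the members, a relative with a like function from another gene was measured in the same mice, and none of these relatives was called in zQ175 against wild-type with all mice in the edgeR fit. In females alone 3 of the 5 were called higher: Gnas (0.32, edgeR adjusted p = 0.0202), Adcy6 (0.45, edgeR adjusted p = 0.000478) and Prkar2a (0.27, edgeR adjusted p = 0.00206). Of all genes, 787 of 16699 were called higher in that fit of females. Over the alternative fits, the lowest values were 0.04 for Gnas, 0.05 for Adcy6 and 0.14 for Prkar2a. None of these 3 was called for a difference of the zQ175 effect between the sexes, averaged over both Msh3 genotypes. In limma on log2(TPM + 0.1), Adcy6 (0.29, adjusted p = 0.0364) and Prkar2a (0.26, adjusted p = 0.000448) were called higher as well. Gnas, the general stimulatory α subunit to which Gnal is the olfactory and striatal counterpart, had from 421 to 649 CPM in wild-type and from 523 to 657 CPM in zQ175 mice, a log2 fold change of 0.17 (edgeR adjusted p = 0.111); its locus holds overlapping transcripts that counting per gene does not separate. Adcy6, the cyclase closest to Adcy5, had 18.1 to 25.5 CPM and 21.1 to 27.8 CPM, a log2 fold change of 0.24 (edgeR adjusted p = 0.0333) under the fold minimum. Adcy6 was also called without wild-type male replicate 4 (0.28, edgeR adjusted p = 0.0173) or without zQ175 male replicate 4 (0.28, edgeR adjusted p = 0.0137). Prkar2a, the RIIα subunit, had 44.8 to 54.4 CPM in wild-type and 51.8 to 63.6 CPM in zQ175 mice (0.20, edgeR adjusted p = 0.00274), also under the fold minimum. Ensa, the close paralog of Arpp19, had 191 to 216 CPM and 200 to 239 CPM (0.09, edgeR adjusted p = 0.109), and R3hdm1, a paralog of Arpp21, had 187 to 261 CPM and 169 to 216 CPM (-0.16, edgeR adjusted p = 0.0979). A further inhibitor 1 relative, Ppp1r1c, was at most 0.214 CPM in any mouse and was not tested.

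The balance of each member to its relative within a mouse was lower with the zQ175 allele on both backgrounds, by a difference in log2 ratio that was chosen for testing after the values were seen. For zQ175 against wild-type, the direction of these ratios already followed from the changes of members and relatives given above. On the Msh3-/- background the changes of the members were given above too, so the ratios there are not an independent test. Arpp19 to Ensa differed by -1.02 between zQ175 (0.48 ± 0.0898) and wild-type mice, and went from 1.42 ± 0.117 in Msh3-/- to 0.53 ± 0.0705 in zQ175:Msh3-/- mice. Adcy5 to Adcy6 went from 6.42 ± 0.229 to 5.32 ± 0.201, and on the Msh3-/- background from 6.29 ± 0.266 to 5.34 ± 0.298. Arpp21 to R3hdm1 went from 2.69 ± 0.156 to 1.84 ± 0.179 in zQ175 mice. For these 3 pairs the groups were apart on both backgrounds (exact permutation, adjusted over 5 pairs, p = 0.000194 in zQ175 against wild-type and 0.000259 on the Msh3-/- background). Prkar2b to Prkar2a went from 1.57 ± 0.169 to 1.16 ± 0.151 (exact permutation, adjusted p = 0.000194), with groups apart, and from 1.49 ± 0.188 to 1.21 ± 0.105 on the Msh3-/- background (exact permutation, adjusted p = 0.00214), where the groups overlapped. Gnal to Gnas went from 0.66 ± 0.271 to 0.14 ± 0.18 (exact permutation, adjusted p = 0.000932) and from 0.50 ± 0.227 to 0.16 ± 0.257 (exact permutation, adjusted p = 0.012), with groups that overlapped on both backgrounds.

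**Figure D3:**
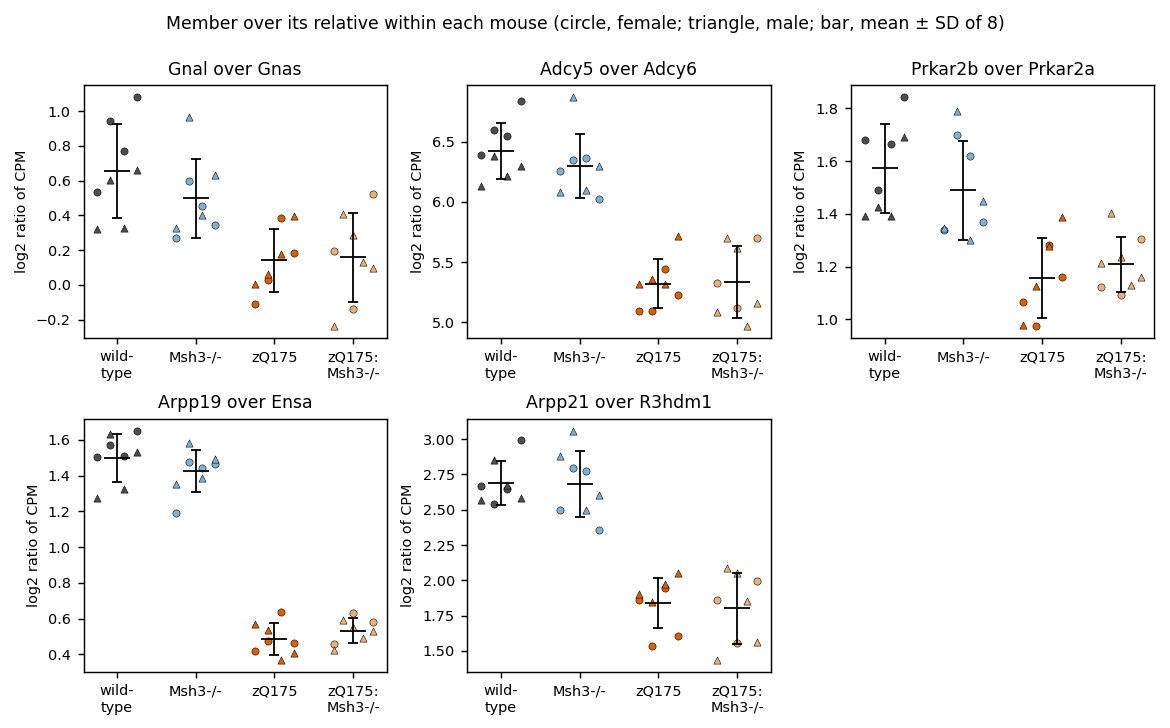
Log2 ratio of CPM of a member to its relative (vertical axes, which do not start at 0) within each mouse, by genotype group; circles are females, triangles are males, and bars are the mean ± SD of 8 mice. Arpp19 over Ensa separates the groups, with zQ175 -1.02 from wild-type, while the groups of Gnal over Gnas overlap.

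A list of 84 other genes of the cascade, grouped by role, showed where else expression differed between zQ175 and wild-type mice. It too was drawn up with earlier results of these data known. Of the 83 tested, 20 fell, 4 rose and 59 were not called, with a median log2 fold change of -0.07, beside 11.6% of all genes called in either direction. All 4 receptors fell: Adora2a (-1.03 on the log2 scale), Drd1 (-0.81), Drd2 (-0.79) and Chrm4 (-0.74), the muscarinic receptor that opposes Drd1 signalling. Of 13 G protein genes, Ric8b, a chaperone of Golf, fell (-0.33), while Gng3 rose by 0.62 and Gng4 by 0.66. None of the 7 other adenylyl cyclases was called, with log2 fold changes whose median was 0.02, although Adcy6 was called higher in females alone (0.45) and in limma on TPM (0.29 and 0.27 with pseudocounts of 0.1 and 1). In zQ175:Msh3-/- against wild-type mice 1 of the 7 was called higher in edgeR, beside 914 of 16610 genes. The zQ175 effect averaged over both Msh3 genotypes in females also called 1 of the 7 higher, beside 766 of 16610 genes. Among 12 further protein kinase A subunits, inhibitors and anchors, Prkar1b rose by 0.33 and the anchor Akap5 had -0.27 (edgeR adjusted p = 0.000245). Akap5 lost its call, at -0.26 to -0.23, without wild-type female replicate 2 or 4, zQ175 female replicate 1 or 2, or zQ175 male replicate 1 or 2. In zQ175:Msh3-/- against Msh3-/- mice none of these 12 genes was called: Prkar1b had 0.24 (edgeR adjusted p = 0.006) and Akap5 -0.16 (edgeR adjusted p = 0.0278). Gng4, Prkar1b, Akap5 and Pde4d, below, are named after their values were seen.

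Of 8 cAMP phosphodiesterases, which end the signal, 4 fell: Pde10a (-1.18), Pde1b (-0.76), Pde7b (-0.63) and Pde2a (-0.31), while Pde4d rose by 0.30. Protein phosphatase 1, the target of DARPP-32, had 4 of 6 genes tested fall, among them the catalytic subunits Ppp1ca (-0.50) and Ppp1cb (-0.36) and the spine scaffolds Ppp1r9b (-0.48) and Ppp1r9a (-0.46). Of 10 genes of protein phosphatase 2A and calcineurin, 3 fell: the calcineurin subunits Ppp3ca (-0.58) and Ppp3r1 (-0.36) and the B subunit Ppp2r2a (-0.46), whose complex ARPP-19 inhibits. Among 7 substrates or relatives of STEP, Ptpn7 (-1.64, the largest fall of the list) and Ptk2b (-0.29) fell, while in the CREB group the kinase gene Rps6ka5 fell (-0.70). Ppp1cb, Pde2a and Ptk2b stayed under the fold minimum in limma on TPM, at -0.20, -0.25 and -0.24. None of the 8 kinases that act on DARPP-32 or ARPP-19 was called. The one furthest from 0, Mastl, the kinase that activates ARPP-19, was chosen after its values were seen; it had 0.45 (edgeR adjusted p = 0.0735) here and 0.61 (edgeR adjusted p = 0.0165), past both thresholds, in zQ175:Msh3-/- against Msh3-/- mice, at a low mean of 0.827 CPM in wild-type mice. On the Msh3-/- background, 19 of the 83 genes fell and 4 rose, beside 10.6% of all genes called in either direction, and for loss of Msh3 none of the 83 was called in edgeR on either Htt background or on average.

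**Figure D4:**
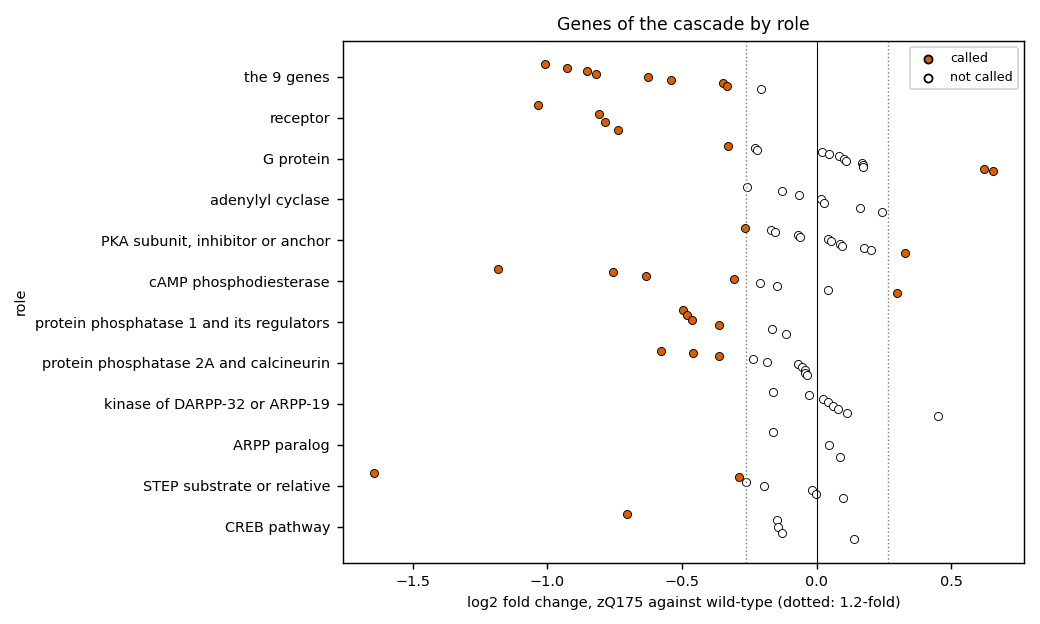
Log2 fold change between zQ175 and wild-type mice (horizontal axis) for the 9 genes and for the other genes of the cascade by role (vertical axis); each point is a gene, filled where called, and dotted lines mark a fold change of 1.2. All 4 receptors and 8 of the 9 genes lie at the left and are filled, while the 7 other adenylyl cyclases are open and centred near 0.

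Genes whose centred log2 CPM over the 32 mice lay nearest to that of a member, by root mean square difference among 10140 genes of at least 10 CPM on average, were named for each of the 8 called members. For Ppp1r1b these were Syndig1l (0.06), Adcy5 (0.06) and Drd2 (0.07), against a root mean square of 0.43 for Ppp1r1b itself. For Adcy5 they were Pde1b (0.06), Drd2 (0.06) and Ppp1r1b (0.06), and for Arpp21 they were Adora2a (0.09), Adcy5 (0.10) and Lrrc10b (0.11). Gnal lay nearest to Celf1 (0.05), Fam102b (0.06) and Pde2a (0.06), and Gng7 had Meis2 (0.06) and Ankrd63 (0.06) among its nearest. Nearest to Ppp1r1a were Itpka (0.09), Ddn (0.10) and Gabrd (0.10), to Arpp19 Rgs4 (0.10), Ppp4r4 (0.10) and Pcp4 (0.11), and to Ptpn5 Cacng4 (0.06), Sh2d5 (0.08) and Actn2 (0.08). The points share the same 32 libraries, and the likeness is a description without a test.

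Other markers moved with the members as follows. Of 8 spiny projection neuron markers 7 fell in zQ175 against wild-type mice, and their sum went from between 3840 and 4779 CPM to between 2211 and 2834 CPM; 3 of them, Drd1, Drd2 and Adora2a, are also receptors of the list above, and Tac1 was at 0.06 (edgeR adjusted p = 0.422). None of 4 general neuron markers was called, with sums of 2979 to 3267 CPM in wild-type and 2760 to 3382 CPM in zQ175 mice. For other cell types, 1 of 5 astrocyte markers (Slc1a2, -0.30), 1 of 4 oligodendrocyte markers (Mobp, -0.33), 2 of 5 interneuron markers (Chat, -0.27, and Slc5a7, -0.31) and 1 of 3 endothelial markers (Flt1, -0.33) fell, and none of the microglial, cortex, thalamus or choroid plexus markers was called. Summed cortex markers were 41.2 to 272 CPM in wild-type and 30.7 to 348 CPM in zQ175 mice, and summed astrocyte markers were 3038 to 3358 CPM and 2559 to 2842 CPM. Most of the astrocyte sum was Slc1a2, with means of 2797 CPM in wild-type and 2272 CPM in zQ175 mice. The other astrocyte markers, from -0.13 (Aldh1l1) to 0.07 (Gfap) on the log2 scale, were not called. What part these cell types had in the fall of the members was not tested.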

How the data were processed

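Striatal RNA of 32 mice was poly(A)-selected and sequenced in paired ends. The authors deposited raw read counts per Ensembl gene (build GRCm38.p6 per the labels; aligner and counter not given in the sources used here), and a length-normalized table, named as FPKM but summing to the same total in every mouse, as TPM do, so treated as deposited TPM. Names came from GENCODE M21 (54495 of 54532 identifiers). Members and lists were chosen with earlier results of these data known, also the rule for named genes: up to 20 genes of the list of 84 by smallest adjusted p, 6 paralogs, and the 3 genes nearest to each called member, of which 1 is not reported here. Counts were filtered (filterByExpr by genotype), TMM-normalized and tested with edgeR 4.0.16 in R 4.3.3, in a model of the 4 genotypes over all 32 mice, with Benjamini-Hochberg adjustment over 16610 genes. Called means an adjusted p under 0.05 and at least 1.2-fold, thresholds taken from the study. CPM are TMM-scaled. Exact permutation tests used all 12870 arrangements. P-values set the difference between groups against the spread between mice. Litter is not among the sample labels used here and was not in the model. Depth was 12359347 to 25030335 reads, with 565 or more reads per member in every mouse. The share of counting error in the spread between mice was not measured. It weighs most on Ppp1r1a, which had 565 to 1225 reads in zQ175 mice and a coefficient of variation of 4.00% there. Alternatives used limma 3.58.1 on log2(TPM + 0.1) and DESeq2 1.42.0, other filters and scalings, sex as a term, each sex, and each mouse left out. The edgeR script was tested on simulated data. Counting by strand is not stated, so reads of overlapping antisense genes cannot be told apart.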

Additional observations from a re-analysis of the deposited data

How the results depend on the processing

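The count of members called was 8 in zQ175 against wild-type under every alternative except females only and no fold minimum (9 each) and a minimum of 1.5-fold (5); in zQ175:Msh3-/- against Msh3-/- mice it was 8 except for 9 with no fold minimum, 7 without the mice with high cortex markers, 6 in females only and in the 3 limma fits on TPM, and 5 at 1.5-fold. Leaving out each mouse in turn gave 8 to 8 and 7 to 8. For loss of Msh3 it was 0 in edgeR, DESeq2 and limma, and 0 to 0 with mice left out. The listed genes called in zQ175 against wild-type numbered 24, 47 with no fold minimum, 11 at 1.5-fold, 21 to 30 otherwise and 23 to 26 with mice left out. The limma fits put Gnal at -0.21 and Gng7 at -0.24 in zQ175:Msh3-/- against Msh3-/- mice. Of 965 single values, 927 kept direction and call, 29 lost and 8 gained a call and 1 moved, the largest interaction of a member, to 0.25 in females alone; none called changed sign; members near 0 for loss of Msh3 or the interaction, up to 0.07 in size, changed sign 156 times, at adjusted p of 0.372 or more. The same numbers in the labels did not pair mice. A correlation over 0.1 was found in 12 of 45 same-numbered pairs, beside 54 of 147 pairs of the same sex with other numbers. With the replicate block, 8, 8, 0 and 24 were called. The mice left out for cortex or choroid plexus markers, and the TPM ratios, were chosen after seeing the data. Counting error weighs most on Ppp1r1a, the member with the fewest reads.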
